A study of Homo sapiens with 3 samples.

Results

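Titin and 9 genes whose products sit at or near the Z-disc were followed in the cells of chambered cardiac organoids (CCOs): TTN, ACTN2, LDB3, CSRP3, MYOZ2, TCAP, ANKRD1, NEBL, MYBPC3 and SMPX. They were taken by name, and these 10 of the 32738 gene rows of the count table were all present. MYBPC3 belongs to the thick filament rather than the Z-disc, and SMPX to the links between the outer myofibrils and the membrane.

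CCOs were grown from H7, a line of human embryonic stem cells with no engineered change named in the labels. Cells received a GSK3 inhibitor and then a Wnt inhibitor in a monolayer and were packed into Matrigel on day 7. They were fed a growth medium with thrombin, cardiotrophin, EGF, FGF2, WNT3A and EDN1 until day 14, and RPMI with B27 in a stirred flask after it. Organoids were dissociated on day 8 (D8), day 14 (D14) and day 21 (D21), with 1 droplet library per day. Day, medium and library therefore cannot be separated, days were compared without a test or a replicate error, and every interval printed is an exact 95% interval for counting error only.

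The Z-disc is the border between neighbouring sarcomeres, where actin filaments of opposite polarity are cross-linked by alpha-actinin. Titin runs from there to the M-band as a molecular spring, with its tip capped by telethonin, and LIM and ankyrin-repeat proteins at the Z-disc and along titin are thought to pass on mechanical load. In the heart several of these genes are well known from inherited cardiomyopathy, and ANKRD1 is a classic gene of cardiac stretch and stress.

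Promoter sequence, defined as the 250 bases before an annotated start, was held by RefSeq (GRCh38.p14) for 8 of the 10 genes in 13 windows; CSRP3 and TCAP had none. A MEF2 box, the binding motif of a muscle transcription factor family, was present in 4 of the 8 (TTN, MYOZ2, MYBPC3 and SMPX), and in 1.75% of 35116 promoters of the same length. The units differ: a gene counted when any of its windows held the motif (NEBL had 5 and LDB3 2), and shares over all promoters are of single windows. A CArG box, the motif of serum response factor, was found in LDB3 alone and in 1.16% of all promoters, and an M-CAT element (CATTCC, the TEAD motif) in ANKRD1 alone, at 2 places, and in 11.9% of all. The GATA letters AGATAA stood in ANKRD1, NEBL (in window 5 alone) and MYBPC3 and in 9.17% of all promoters. The exact letters TATAAA of the TATA box stood in none of the 8 and in 6.80% of all. Other forms of the TATA box were not searched. Like letters stand close before the start in ANKRD1 (TATATAAG), TTN (AATATAAG) and MYBPC3 (CATATATAG), and this is not a full list. Both strands were searched except for the TATA box and the CArG box, which were read on the gene's strand, the matches did not overlap each other within a window, and a match of letters is a description and not a bound site. The stretches around the MEF2, CArG and M-CAT letters are shown, because 4 of the genes share 1 motif while LDB3 and ANKRD1 hold others, written 5′ to 3′ in the direction of the gene with the motif in capitals.
TTN, chr2:178807571-178807630, minus strand, MEF2 box 167 to 158 bases before the start: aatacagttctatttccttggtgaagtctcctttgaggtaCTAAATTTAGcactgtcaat
MYOZ2, chr4:119135740-119135799, plus strand, MEF2 box 52 to 43 bases before the start: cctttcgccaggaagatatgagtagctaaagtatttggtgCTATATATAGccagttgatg
MYBPC3, chr11:47352777-47352836, minus strand, MEF2 box 94 to 85 bases before the start: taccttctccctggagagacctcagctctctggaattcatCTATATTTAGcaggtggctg
SMPX, chrX:21758190-21758249, minus strand, MEF2 box 93 to 84 bases before the start: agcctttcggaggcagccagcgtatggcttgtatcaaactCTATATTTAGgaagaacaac
LDB3, chr10:86668414-86668473, plus strand, CArG box 57 to 48 bases before the start: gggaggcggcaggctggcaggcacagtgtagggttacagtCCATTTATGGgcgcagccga
ANKRD1, chr10:90921292-90921337, minus strand, M-CAT element 220 to 215 bases before the start, read on the other strand: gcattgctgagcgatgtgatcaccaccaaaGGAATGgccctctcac

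After filtering, 2657, 3585 and 1946 cells were kept at D8, D14 and D21, with median depths of 15316, 12282 and 14105.5 unique molecular identifiers (UMIs) per cell. Between 9 and 14 of the kept barcodes were shared by any pair of libraries. Cardiomyocyte-like (CM-like) cells numbered 489 on the first day, all in cluster 5. There were 854 at D14, of which 845 were in cluster 1, and 542 at D21, of which 486 were in cluster 6 and 50 in cluster 18. These clusters were named from 8 cardiac markers that include none of the 10 genes, and the 10 genes and their associated list were also left out of the variable genes, so neither choice used the levels described here. Free RNA was judged in cells with no contractile role: cluster 8 at D8 and D14, which has no class name and led in 7 of 8 foregut epithelial markers, and hepatic endoderm-like cluster 11 at D21. These are called the background clusters here. Levels are summed UMIs of a gene per 1000000 UMIs of the group (CPM) and are read within a gene, since UMIs were not set against transcript length. In CM-like cells none of 8 skeletal muscle markers reached 10 CPM on any day, and they summed to 0.55 to 3.32 CPM. The 8 hepatic markers summed to 29.2, 142 and 2522 CPM, the 8 fibroblast markers to 738, 612 and 276 CPM and the 8 smooth muscle markers to 1799, 1472 and 2008 CPM, and their part in the values that follow was not tested.

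In CM-like cells the 10 genes together took 4238 CPM at D8, 8037 at D14 and 13586 at D21. The rise was uneven: titin and nebulette were already high at D8, whereas myozenin and telethonin were scarce then and had by far their highest level at D21. TTN made up 71.9%, 55.9% and 51.1% of the UMIs of the 10 on the 3 days, with UMIs not set against length. Between D8 and D14, 8 of the 10 were 2-fold or more higher, where 10.6% of 9061 genes were, and none was 2-fold lower, where 2.88% were. Between D14 and D21, 6 of the 10 were 2-fold or more higher against 4.83% of 9089 genes, and none was 2-fold lower against 14.2%. Both comparisons share the D14 library. Over the whole interval, 9 of 10 were 2-fold or more higher at D21 than at D8 (11.9% of 8960 genes) and 0 were 2-fold lower (15.1%). The median log2 ratio of the 10 was 2.29 for D14 over D8 and 1.10 for D21 over D14, beside 0.03 and -0.15 over all genes tested.

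**Figure D1:**
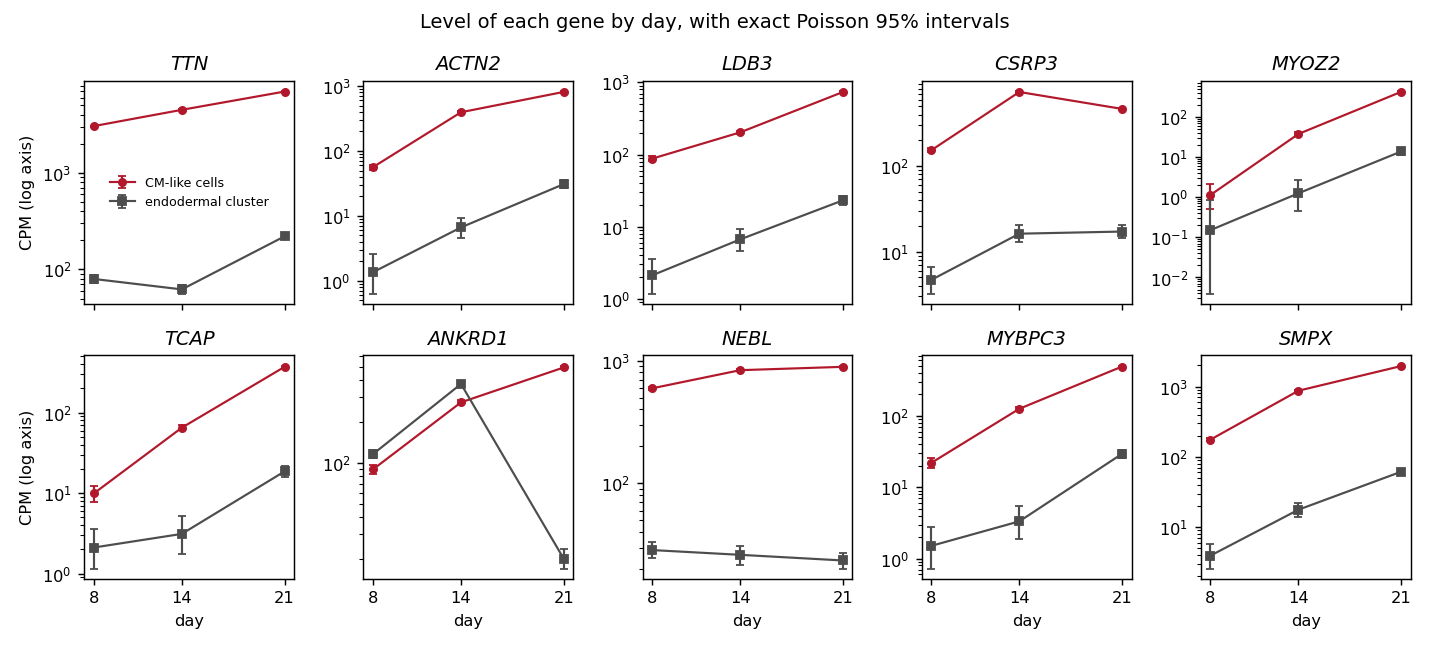
Level of each gene (CPM, log axis, 1 panel per gene) by day in CM-like cells (red circles) and in the background cluster of the same library (grey squares: cluster 8 at D8 and D14, cluster 11 at D21); points are summed counts of 1 library and bars are exact Poisson 95% intervals. CM-like levels rose at each step for 9 genes and fell between D14 and D21 for CSRP3, and ANKRD1 is the gene whose grey line reaches the red one.

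TTN, the spring that joins the Z-disc to the M-band, was at 3049 CPM (3010 to 3087) in CM-like cells of D8, then 4492 CPM (4454 to 4531) at D14 and 6945 CPM (6885 to 7006) at D21. D8 already held 43.9% of the D21 level, and each step was modest, with log2 ratios of 0.56 and 0.63. The background clusters had 79.7, 62.2 and 220 CPM, so that CM-like cells stood far above free RNA on every day. With each cell thinned to 4000 UMIs, TTN was found in 99.2%, 99.6% and 99.8% of CM-like cells. In the background clusters it was found in 15.6%, 14.4% and 47.7% of cells, whose median depths were 23586, 20529 and 21928 UMIs against 14474, 12607.5 and 12765 in CM-like cells. Whether reads were assigned by strand is not stated in the sources used here, so TTN and its antisense gene TTN-AS1 cannot be told apart in these counts.

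TCAP, which encodes telethonin, the cap that joins the tips of neighbouring titin molecules, was at 9.91 CPM (7.85 to 12.4) at D8, 65.1 CPM (60.6 to 69.9) at D14 and 371 CPM (357 to 386) at D21. Its D8 level was 2.67% of that at D21. The share of CM-like cells with a TCAP UMI went from 4.29% to 19.7% and 55.4%, beside 0.389%, 0.957% and 5.56% in the background clusters. Telethonin and titin, partners at the Z-disc, thus differed in how much of the D21 level was present at D8.

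ACTN2, the sarcomeric alpha-actinin that cross-links actin at the Z-disc, was at 56.3 CPM (51.2 to 61.8), 395 CPM (384 to 407) and 814 CPM (793 to 835). The larger step was the first, with a log2 ratio of 2.81 (2.67 to 2.95) against 1.04 (0.99 to 1.10) for the second. It was present in 19.0%, 63.3% and 91.5% of thinned CM-like cells, and in 0.778%, 2.39% and 9.48% of background cells. The non-muscle alpha-actinins took another course, in that ACTN1 was at 88.9, 123 and 117 CPM and ACTN4 at 83.2, 112 and 49.6 CPM. The skeletal isoform ACTN3 was not analysed here.

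LDB3, a PDZ and LIM domain protein that binds alpha-actinin, was at 87.6 CPM (81.2 to 94.3), 203 CPM (195 to 211) and 735 CPM (716 to 755). Unlike ACTN2, its larger step was the second, with a log2 ratio of 1.86 (1.79 to 1.93) after 1.21 (1.09 to 1.34). This turned at a clustering resolution of 0.4, where the first step of LDB3 was 2.37 and the second 2.02. Its share of thinned CM-like cells was 27.6%, 47.0% and 91.1%, beside 0.389%, 1.44% and 7.52% of background cells.

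MYOZ2, which encodes a calsarcin that tethers the phosphatase calcineurin to alpha-actinin, changed by the widest margin of the 10. It had 9 UMIs in the 489 CM-like cells of D8 (1.13 CPM, 0.52 to 2.14), then 440 at D14 (37.4 CPM, 34.0 to 41.1) and 3061 at D21 (419 CPM, 404 to 434). The log2 ratio was 5.05 (4.11 to 6.19) for the first step and 3.48 (3.34 to 3.63) for the second, and the D8 level was 0.270% of that at D21. It was found in 0.409%, 10.9% and 73.4% of thinned CM-like cells. The D8 share was close to the 0.389% of cluster 8, and these shares do not tell it apart from background. At full depth cluster 8 of D8 had 1 MYOZ2 UMI in 257 cells, against the 9 UMIs of CM-like cells. The D8 level and its ratios rest on those 9 UMIs. Of the thinned cells of cluster 11 at D21, 5.56% had a MYOZ2 UMI. Its relatives MYOZ1 and MYOZ3 were at 3.76, 3.83 and 0.82 CPM and at 3.14, 4.68 and 0.55 CPM, both lowest on the day when MYOZ2 was highest.

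NEBL encodes nebulette, which binds actin filaments near the Z-disc, and was the steadiest of the 10. Its level was 594 CPM (577 to 611) at D8, 835 CPM (818 to 851) at D14 and 889 CPM (867 to 910) at D21, and D8 held 66.8% of D21. The second step was small, with a log2 ratio of 0.09 (0.05 to 0.14), and turned to -0.15 over all kept cells and to -0.01 in cells chosen by a fixed number of contractile UMIs. It was found in 76.5%, 91.3% and 93.5% of thinned CM-like cells, beside 9.34%, 8.61% and 8.82% of background cells. The skeletal relative NEB had 5, 4 and 2 UMIs.

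CSRP3, the muscle LIM protein, was the only one of the 10 that was lower at D21 than at D14. It was at 153 CPM (145 to 162), 735 CPM (720 to 751) and 466 CPM (451 to 482), a log2 ratio of 2.26 (2.18 to 2.35) and then -0.66 (-0.71 to -0.60). The share of thinned cells with a UMI moved the same way, from 30.7% to 68.3% and 60.7%, beside 2.33%, 5.26% and 5.88% of background cells. The ratio of D21 to D14 stayed below 0 in all 14 alternatives, between -0.87 and -0.15, the latter with 35 CM-like cells at D21 under a mitochondrial limit of 5%. CSRP2, a related LIM protein, had the reverse course, with 385 CPM at D8, 212 at D14 and 655 at D21. CSRP1 stayed low at 3.26, 8.33 and 3.69 CPM.

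ANKRD1, the cardiac ankyrin repeat protein that binds titin and also acts in the nucleus, was at 89.5 CPM (83.0 to 96.3), 276 CPM (267 to 286) and 496 CPM (480 to 512) in CM-like cells. It was found in 14.9%, 17.1% and 37.6% of thinned CM-like cells. At D8 and D14 cluster 8 had 17.5% and 45.9%, above these shares, while cluster 11 at D21 had 5.23%. Cluster 8 is no background for this gene, whose level there is described further on, and in fibroblast-like cells of D14 the share was 1.94%. The related ANKRD23 had 4, 4 and 3 UMIs, and ANKRD2 was seen in too few barcodes to be kept. The first step depended on how CM-like cells were chosen: its log2 ratio was 1.63 for clusters and 0.04 for cells with 32 or more contractile UMIs.

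MYBPC3, which encodes cardiac myosin-binding protein C, was at 22.0 CPM (18.8 to 25.5), 126 CPM (120 to 133) and 492 CPM (476 to 509), and had a UMI in 44 of the 489 thinned CM-like cells of D8, and in 38.1% and 80.1% of those of D14 and D21. Background cells had 0.478% at D14 and 10.8% at D21. The log2 ratios of the steps were 2.52 (2.29 to 2.75) and 1.97 (1.88 to 2.05). Its skeletal relative MYBPC2 had 1, 5 and 1 UMIs. SMPX, a small muscle protein of the costamere, was at 176 CPM (166 to 185), 873 CPM (856 to 890) and 1959 CPM (1927 to 1992), with log2 ratios of 2.31 (2.23 to 2.40) and 1.17. It was found in 37.6%, 87.0% and 97.8% of thinned CM-like cells, beside 2.72%, 7.66% and 19.0% of background cells.

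Set in order by the share of the D21 level present at D8, the genes ran from NEBL (66.8%), TTN (43.9%), CSRP3 (32.8%) and ANKRD1 (16.6% to 19.6%) through LDB3 (11.9%), SMPX (8.96%), ACTN2 (6.92%) and MYBPC3 (4.46%) to TCAP (2.67%) and MYOZ2 (0.270%). The counting intervals of neighbours in this order did not overlap, and replicate spread is unknown. The shares depended on the cells chosen: at a resolution of 0.4 they were 30.5% for NEBL, 24.7% for ANKRD1, 17.5% for TTN and 12.5% for CSRP3, and with 32 or more contractile UMIs 92.9%, 55.6%, 58.6% and 57.1%. Over all kept cells ANKRD1 came first with 65.02%. Scaling by median-of-ratios raised every ratio of D21 over D14 by 0.25 on the log2 scale and lowered every ratio of D14 over D8 by 0.08. Under it the share of higher genes among all genes past 2-fold went from 25.4% to 42.9% for D21 over D14, and 7 of the 10 were then 2-fold or more higher.

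The filter on mitochondrial UMIs weighs on D21. With a limit of 20% in place of 10%, 1632 CM-like cells were found at D21 in place of 542, and 1332 in place of 854 at D14. The counts of members past 2-fold were 8 and 6 of 10, as with the stricter limit, and the log2 ratio of CSRP3 at D21 over D14 was -0.41. The first step depended more on which D8 cells were taken. At a resolution of 0.4, with 1808 CM-like cells at D8, the log2 ratio of D14 over D8 was 1.76 for TTN, 1.53 for NEBL and 2.37 for LDB3, and with cells chosen by 32 or more contractile UMIs it was 0.21, 0.12 and 0.76. Without the 50 cells of cluster 18, which had a median of 8171.5 UMIs and mostly clone-named or antisense genes in the lead, the counts were again 8 and 6.

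Single cells showed how these levels were made up. With 4000 UMIs per cell, the median CM-like cell held UMIs of 3 of the 10 genes at D8, 5 at D14 and 8 at D21. All 10 were seen together in 0 of 489 cells at D8, a count of 0 that allows a share of up to 0.613% (3 cells of the total), in 3 of 854 at D14 and in 52 of 542 (9.59%) at D21. That limit is on cells with UMIs of all 10 among 4000 and not on cells expressing them. Of the 45 D8 cells with a single member, 44 had TTN and 1 had ACTN2. Of the cells with a pair of members, all had TTN and 83 (65.4%) had NEBL as the other, while LDB3 was the other in 16 and SMPX in 12. Of the 132 cells with 3 members, all had TTN and 118 (89.4%) had NEBL. Detection follows abundance, so these counts describe which transcripts a shallow sample of a cell contained first.

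Scarcer genes were often found without each other. At D8, NEBL was present in 93.2% of the 44 CM-like cells with MYBPC3, against 76.5% of all, but ACTN2 was in 31.8% of them and LDB3 was in 33.3% of the 93 cells with ACTN2. TCAP was seen in 21 cells at D8, and 52.4% of these had ACTN2, against 19.0% of all CM-like cells. At D14, 82.8% of the 93 cells with MYOZ2 had ACTN2 and 82.8% had CSRP3, against 63.3% and 68.3% of all. At D21 ACTN2 was in 91.5% to 95.1% of the cells with any other of the 10, against 91.5% of all.

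The order of appearance was read from all kept cells of a day, of every class. They were sorted by the summed UMIs, among 4000, of 10 other contractile genes (ACTC1, HSPB7, MYH6, MYL3, MYL4, MYL7, PLN, TNNC1, TNNI1 and TNNT2). Bins double in width: bin 1 holds 0 to 3 such UMIs, bin 2 holds 4 to 7, bin 4 holds 16 to 31, bin 5 holds 32 to 63, bin 6 starts at 64, and bins 7 and 8 lie above it. At D8, TTN, NEBL and LDB3 reached 50% of their level in the highest bin already among the 177 cells of bin 5. ACTN2, CSRP3, ANKRD1 and SMPX did so among the 97 cells of bin 6. TCAP, MYBPC3 and MYOZ2 passed it only in bin 7, the highest with 20 cells or more, which held 30 cells. TTN rose from 74.7 CPM in bin 1 to 646 CPM in bin 2, 1921 in bin 4 and 3984 in bin 7. MYBPC3 had 0.24 CPM in bin 1, 5.60 in bin 4, 20.8 in bin 5 and 96.0 in bin 7. ANKRD1 was already at 64.1 CPM in bin 1 and reached 366 CPM in bin 7. At D8, CM-like cells made up 0.369% of bin 1, 7.87% of bin 2, 61.2% of bin 4 and 80.8% of bin 5. At D14 they were 4.26% of bin 4, 29.2% of bin 5 and 76.7% of bin 6. The bins thus differ in their mix of cell groups as well as in contractile content. The part of that mix in the order was not tested.

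At D14, NEBL passed 50% in bin 5, TTN, TCAP and MYBPC3 in bin 6, and ACTN2, LDB3, CSRP3, ANKRD1 and SMPX in bin 7. MYOZ2 passed it only in bin 8, where it stood at 97.0 CPM after 34.99 CPM in bin 7. At D21, TCAP and ANKRD1 passed it in bin 8 and the other 8 genes in bin 7. TCAP and MYBPC3 were thus among the later genes at D8 and among the earlier at D14, relative to their own highest bins, and LDB3 was among the earliest at D8 and the later at D14. At D8, TCAP had 13.9 CPM (8.69 to 21.0) in bin 6 and 32.7 CPM (18.3 to 54.0) in bin 7. MYBPC3 had 40.3 CPM (31.1 to 51.5) and 96.0 CPM (69.7 to 129). Counting error therefore does not settle whether these genes passed 50% in bin 6 at D8. The same holds for the bin of LDB3 at D8 and that of TCAP at D14. LDB3 had 87.6 CPM (77.2 to 99.0) in bin 5 and 140 CPM (107 to 178) in bin 7 at D8. TCAP had 51.5 CPM (45.2 to 58.5) in bin 6 and 90.3 CPM (78.3 to 104) in bin 8 at D14. The order is one of levels relative to the top bin on the same day, and at D8 that bin rests on 30 cells. It also depends on the mark: 3 genes passed 50% below bin 6 at D8, 8 passed 25%, and 6 passed 50% when TNNT2 and MYL7 were left out of the sum.

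**Figure D2:**
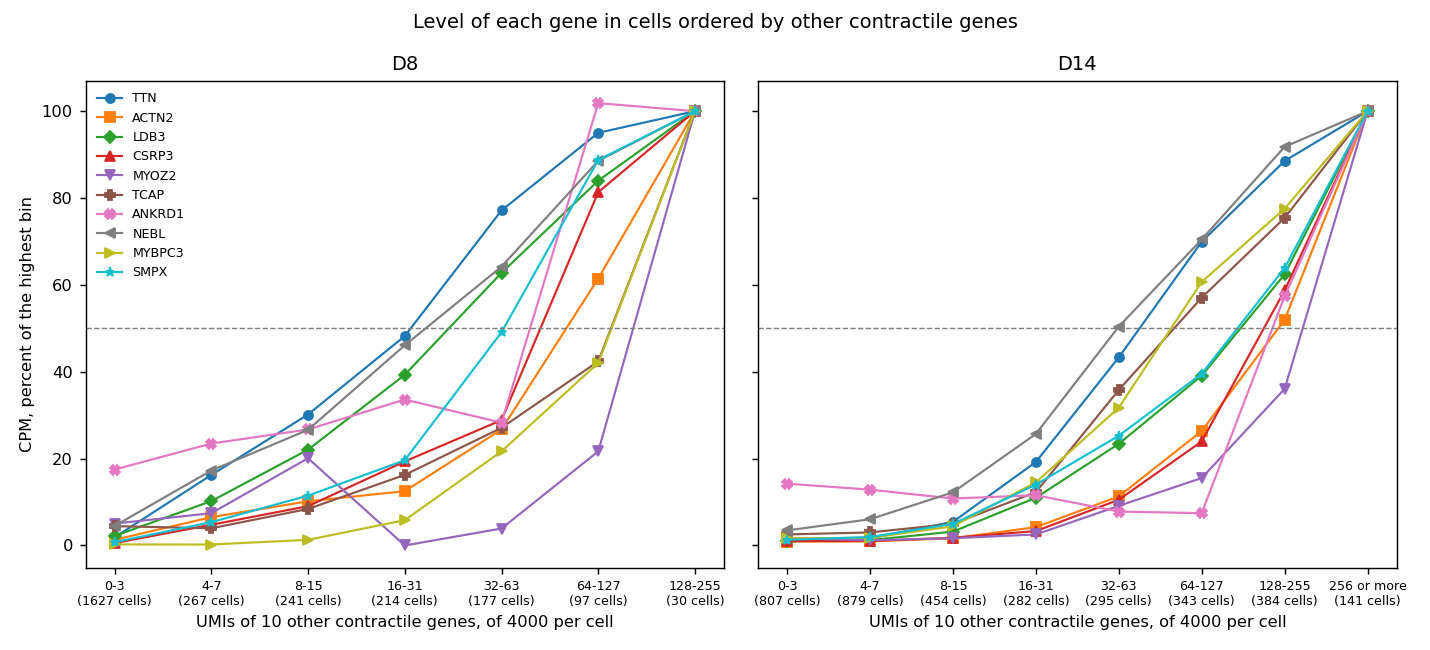
CPM of each gene as a percentage of its level in the highest bin (y axis), for kept cells of every class at D8 (left) and D14 (right). Cells are binned by UMIs of 10 other contractile genes per 4000 (x axis, with cells per bin), and the dashed line is 50%. TTN and NEBL lie on the left of both panels and MYOZ2 on the right, and ANKRD1 is the only line that starts above 14% in the cells with the fewest contractile UMIs.

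Bins also allowed days to be set side by side at a like contractile content. Among the cells of bin 7 (30 at D8, 384 at D14 and 154 at D21), TTN was at 3984, 4686 and 5485 CPM and NEBL at 914, 897 and 679 CPM. In the same cells MYOZ2 was at 8.72, 34.99 and 247 CPM, TCAP at 32.7, 68.1 and 158 CPM, LDB3 at 140, 212 and 532 CPM and MYBPC3 at 96.0, 130 and 378 CPM. The D8 values of MYOZ2 and TCAP rest on 4 and 15 UMIs. ACTN2 was at 172, 401 and 472 CPM, SMPX at 371, 950 and 1412, CSRP3 at 412, 806 and 281 and ANKRD1 at 366, 343 and 228. TTN, ACTN2, LDB3, MYOZ2, TCAP, MYBPC3 and SMPX were thus lowest at D8 also within this bin. The D8 and D14 intervals of MYBPC3 overlapped (69.7 to 129 and 120 to 140). Those of NEBL (828 to 1006 and 872 to 923) and ANKRD1 (313 to 426 and 328 to 359) did too. NEBL and ANKRD1 were lower at D21 in this bin, whereas ANKRD1 rose at each step in CM-like cells. CM-like cells made up 100%, 93.0% and 62.3% of the bin on the 3 days, so its makeup was not the same throughout.

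Across the clusters of a day, the highest level of nearly every gene was in a CM-like cluster. The exceptions were MYOZ2 at D8, at 5.98 CPM in endothelial-like cells, SMPX at D21, at 2074 CPM in 35 cells of dividing cluster 7, and ANKRD1 at D8 and D14. The MYOZ2 value is near the floor of 3.59 CPM (3 counts) in those 48 cells. That of SMPX is close to the 1959 CPM of CM-like cells, and neither is read as a difference. MYOZ2 in endothelial-like cells of D14 is described further on. At D14 ANKRD1 was at 376 CPM (359 to 394) in the 209 cells of cluster 8 and at 276 CPM in CM-like cells, a log2 difference of 0.45 that lay between 0.30 and 0.94 under the other settings tried. Thinned cells with a UMI were 45.9% of cluster 8 and 17.1% of CM-like cells, at median depths of 20529 and 12607.5 UMIs. At D8, cluster 8 had 116 CPM, cluster 14, with no class name, 161 CPM and cluster 0, the largest of that day, 102 CPM, all above the 89.5 CPM of CM-like cells. Cluster 8 had 1 cell at D21, so its level could not be set against CM-like cells on that day. At D21 ANKRD1 was at 496 CPM in CM-like cells and 19.97 CPM in the hepatic endoderm-like cells, a different cluster. In fibroblast-like cells of D14 ANKRD1 was at 5.54 CPM, so the level in cluster 8 was not shared by all cells of the library. Other clusters of D14 had more than fibroblast-like cluster 3, which had 45 ANKRD1 UMIs in 717 cells. Dividing cluster 7 had 486 in 433 cells and cluster 13, with no class name, 116 in 77 cells. Cluster 8 had 1808 in its 209 cells.

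**Figure D3:**
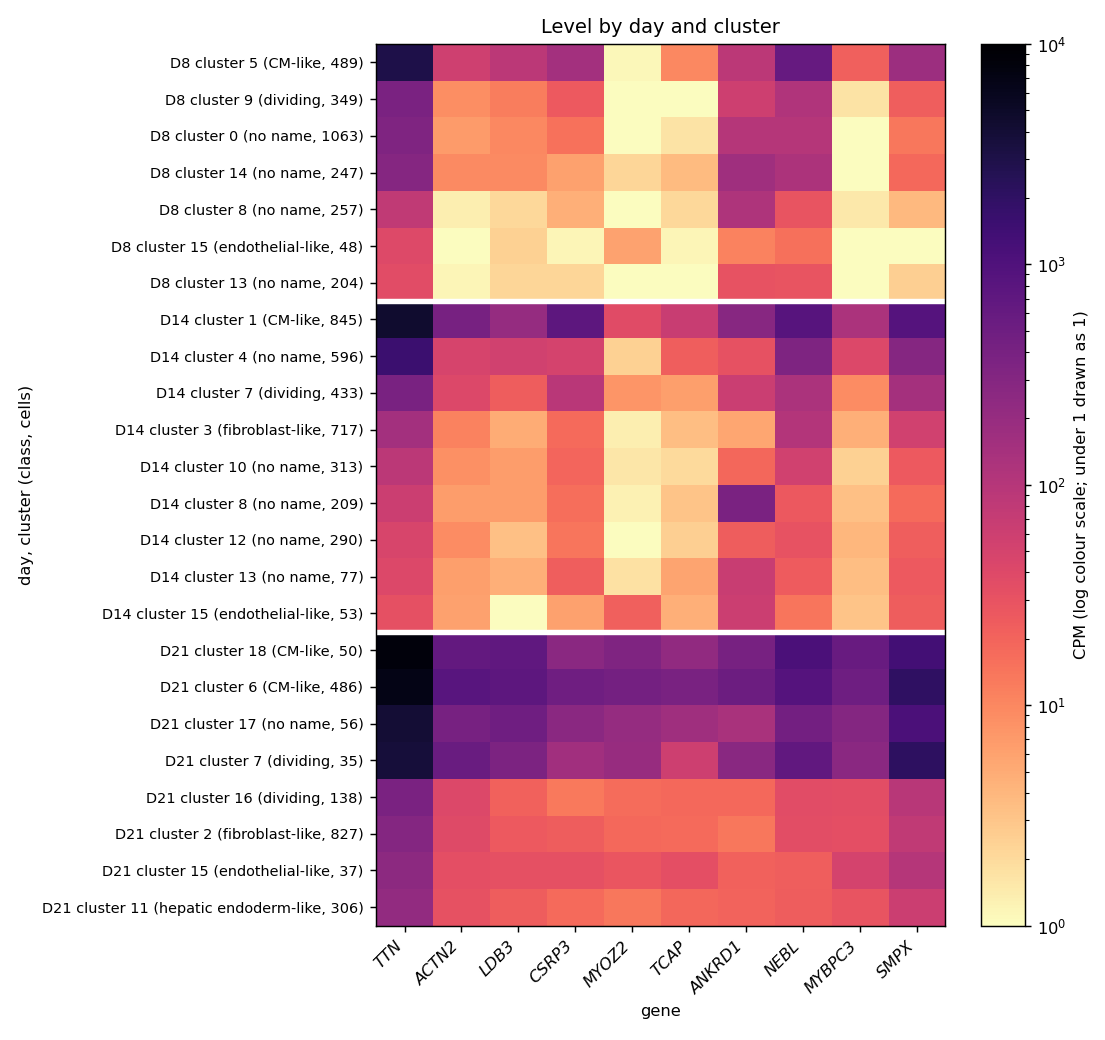
Level of each gene (columns, CPM on a log colour scale, darker is higher) in each day and cluster of 35 or more cells (rows, with class and number of cells), ordered within a day by TTN. The CM-like rows are dark across all columns at D21, and ANKRD1 of cluster 8 at D14 is darker than any other gene in its row.

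Within cluster 8 at D14, the 96 thinned cells with an ANKRD1 UMI had 728 CPM of ANKRD1, 95.8 CPM of TTN and 498 CPM of the epithelial gene EPCAM. The 113 cells without one had 86.4 CPM of ANKRD1, 34.5 CPM of TTN and 453 CPM of EPCAM. The 10 contractile genes summed to 1518 CPM in the former and 762 in the latter, and the part of mixed droplets in this was not tested. Without the 6% of cells with the highest doublet scores, the log2 difference of cluster 8 over CM-like cells was 0.38.

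Within CM-like cells ANKRD1 was carried by few of them. At D14, 91.9% of its 757 UMIs in thinned cells lay in the 85 highest cells of 854, 1 cell held 74, and 82.9% of cells had none. The 10% of cells with most ANKRD1 held 86.7% at D8 and 72.8% at D21. Measured the same way at D14, TTN had 20.02% of its UMIs in its highest cells, NEBL 24.5% and CSRP3 41.4%. A scarce gene gives a high value by counting alone, as MYOZ2 did at D14 with 93.5% of 123 UMIs, but ANKRD1 had 757. At D14 the 146 cells with an ANKRD1 UMI had a median of 229.5 contractile UMIs per 4000 and the 708 without one had 135, while at D21 the medians were 358.5 and 371.5.

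**Figure D4:**
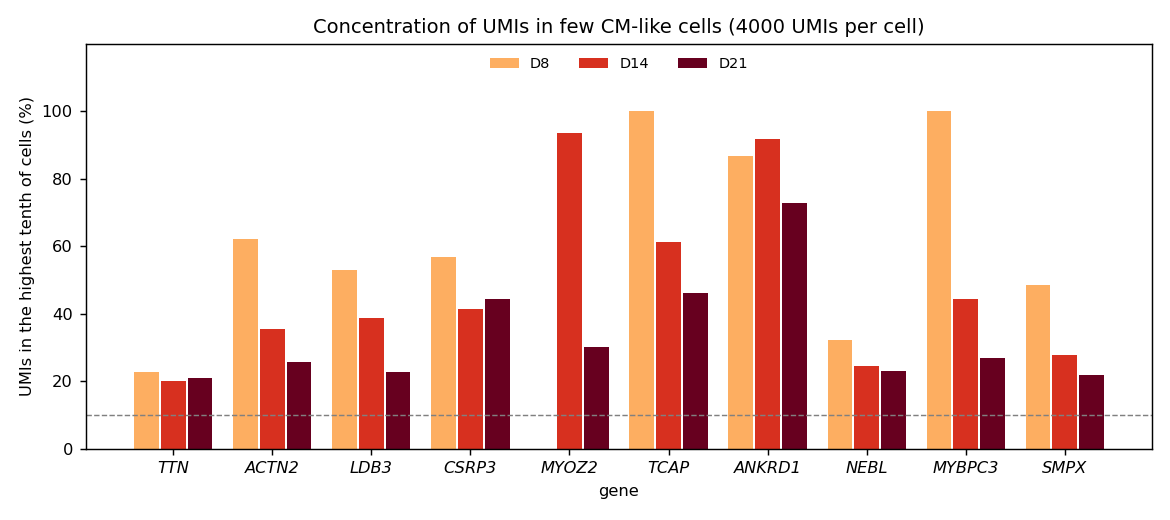
Percentage of the UMIs of each gene that lay in the 10% of CM-like cells with most of them at D8, D14 and D21, with 4000 UMIs per cell; the dashed line marks 10%, an even spread, and MYOZ2 at D8 had too few UMIs to be drawn. ANKRD1 is above 70% on all 3 days, and bars of 100% for TCAP and MYBPC3 at D8 come from genes with under 50 UMIs.

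Titin was also found in cells outside the CM-like clusters. Cluster 4, with 596 cells of D14 and no class name, had 1573 CPM of TTN (1543 to 1602), 344 CPM of NEBL and 294 CPM of SMPX, and 90.9% of its thinned cells had a TTN UMI against 14.4% in cluster 8. It held 2.60 TTN UMIs (2.51 to 2.70) per UMI of TNNT2, the cardiac troponin T gene, against 1.33 (1.31 to 1.35) in CM-like cluster 1 and 0.91 (0.78 to 1.07) in cluster 8. MYOZ2 was at 2.45 CPM in cluster 4 and ACTN2 at 47.6 CPM. NEBL UMIs per TNNT2 UMI were 1.14 (1.03 to 1.26) in fibroblast-like cluster 3 of D14, against 0.25 (0.24 to 0.25) in cluster 1 and 0.39 (0.31 to 0.47) in cluster 8. In cluster 0, with 1063 cells of D8 and no class name, TTN was at 339 CPM and NEBL at 103 CPM, and the ratio of TTN to TNNT2 was 3.45 (3.26 to 3.65) against 1.77 (1.73 to 1.80) in CM-like cluster 5 and 1.45 (1.27 to 1.66) in cluster 8. In the 53 endothelial-like cells of D14, 14 MYOZ2 UMIs gave 0.27 (0.14 to 0.49) per TNNT2 UMI. Cluster 1 had 0.011 (0.010 to 0.012) and cluster 8 of D14 had 0.018 (0.0067 to 0.040). At D21 this ratio was 0.050 in endothelial-like cells and 0.047 in CM-like cluster 6. The part of free RNA in these levels and ratios was not tested.

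At D21 fibroblast-like cells had 302 CPM of TTN and the hepatic endoderm-like cells 220 CPM, with TTN to TNNT2 ratios of 0.61 (0.58 to 0.63) and 0.71 (0.67 to 0.76), both below the 0.77 (0.76 to 0.77) of cluster 6. MYOZ2 was in 7.85% of fibroblast-like and 5.56% of hepatic endoderm-like cells, TCAP in 8.09% and 5.56%, and MYBPC3 in 14.0% and 10.8%. Apart from these, cluster 17, with 56 cells and no class name, had 3946 CPM of TTN, 486 CPM of LDB3 and 200 CPM of MYOZ2. Cardiac genes such as MYL2, MYH7B and MYH6 were among its leading genes, TNNT2 was at 4652 CPM and present in all 56 cells, and its median doublet score was 0.20 against 0.02 to 0.07 in the other clusters. The 35 D21 cells of dividing cluster 7 had 3708 CPM of TTN and 2074 CPM of SMPX beside 60.2 CPM of TCAP.

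A wider list held 59 other Z-disc, titin and M-band genes. Of the 42 that reached 10 CPM, 21 were 2-fold or more higher and 0 lower at D14 than at D8, and 11 were higher and 3 lower at D21 than at D14, with median log2 ratios of 0.93 and 0.62. Over all genes tested 10.6% were higher and 2.88% lower in the first comparison, and 4.83% and 14.2% in the second. The count of 21 was 13 over all kept cells, and that of 11 was 18 with median-of-ratios scaling. Among listed genes of at least 20 CPM, those with the largest ratios of D21 to D8 were MLIP, TRIM63, CRYAB, LMOD2, MYOM1 and TMOD1. MLIP, a lamin-interacting muscle protein, had 2 UMIs at D8 and 29.0 and 61.4 CPM later. TRIM63, a ubiquitin ligase that binds titin at the M-band, went from 1.88 to 19.3 and 132 CPM, and CRYAB, a small heat shock protein that binds titin, from 14.2 to 142 and 347 CPM. LMOD2 and TMOD1, which set actin filament length at its pointed end, went from 2.76 to 18.9 and 57.3 CPM and from 19.1 to 116 and 222 CPM. MYOM1, the myomesin that cross-links titin at the M-band, went from 21.2 to 156 and 337 CPM. DES, the desmin filament that links Z-discs, was at 14.4, 80.2 and 19.6 CPM and so peaked at D14 as CSRP3 did.

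The genes whose levels ran most like those of the 10, over 21 groups of a day and cluster, were MYL4, ACTC1, MYL7, TRDN, TNNT2 and MYH6, with Pearson correlations of 0.972 to 0.985 among 12058 genes. These groups share libraries and free RNA, and the value describes likeness only. Each member set against the mean of the other 9 gave correlations from 0.82 to 0.98 for 9 genes and 0.48 for ANKRD1, with ACTN2 the highest.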

How the data were processed

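The authors deposited raw counts, that is UMIs per gene and cell barcode in 1 merged table (Chromium 3′ v2), and its values were checked to be whole numbers with no normalization. The submitters' processing notes name Cell Ranger, Seurat 3.2.1 and hg19, with no role or order. Each barcode's day was read from its name, and 0 columns of other samples were found. Barcodes with over 2000 and under 7500 genes and under 10% mitochondrial UMIs were kept, as in the methods of the paper, with genes seen in 10 or more barcodes. Kept cells held 46767738, 50247286 and 30898727 UMIs. Seurat 5.3.0 (R 4.3.3) log-normalized the counts to 10000, took 2000 variable genes, left out 36 that are members or listed genes, and clustered all cells on 20 components at a resolution of 0.8. A cluster took a class name when at least 3 markers of that class were 2-fold above the other cells of its day, with a lead of 2 markers, and none of its leading genes went against the name.

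Intervals for CPM are exact Poisson, those for shares Clopper-Pearson, and those for ratios come from the split of the summed counts. Python 3.11.15, numpy 2.4.6, pandas 2.3.3, scipy 1.17.1, scanpy 1.11.5, anndata 0.12.19 and matplotlib 3.10.9 were used, and edgeR 4.0.16 for TMM factors. The ratio step was run on simulated D21 over D14 counts of CM-like cells, with 200 of 8635 genes changed. Of its intervals, 95.2% held the true ratio. The simulated counts had Poisson error alone, which the intervals assume. The run therefore checks the calculation only and cannot show coverage under the spread between real cells or libraries. Doublets were scored with Scrublet and kept, and 6% of cells with the highest scores were left out as an alternative.

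The members and lists were chosen with earlier results of these data known. All 10 members are named. Of the list, the paralogs of members and the 6 genes with the largest ratio of D21 to D8 (1 count added, 20 CPM or more) are named, besides the 6 genes most like the members. DES was chosen after its values were seen. Ratios for all genes had 1 count added to both days. Other data of the paper were not analysed here.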

Additional observations from a re-analysis of the deposited data

Results flagged for a closer look

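The barcodes of D21 with 10% to 20% mitochondrial UMIs, which the filter left out, held the 10 genes at 11629 CPM in sum over 1656 barcodes, a signal outside the cells of the comparisons with the 10% limit. The alternative limit of 20% includes these barcodes. The kept cells of D21 had 4037 CPM and its CM-like cells 13586 CPM. TTN was at 6306 CPM in these barcodes, MYBPC3 at 543 CPM and CSRP3 at 351 CPM, against 6945, 492 and 466 CPM in CM-like cells. At D14, 184 such barcodes held 9287 CPM and at D8, 11 held 7106 CPM.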

How the results depend on the processing

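The count of members at or above the fold lay between 6 and 10 for D14 over D8 and between 5 and 8 for D21 over D14, against 8 and 6. The alternatives include a fold of 1.5 in place of 2, and the 8 for D21 over D14 was counted at 1.5. TTN, NEBL and CSRP3 stayed below 2-fold at D21 over D14 in every alternative, with highest log2 ratios of 0.99, 0.44 and -0.15. Of 278 ratios of single genes under alternatives, 2 reversed, both NEBL at D21 over D14: -0.014 in cells with 32 or more contractile UMIs and -0.15 in all kept cells. Associated genes 2-fold or more higher were 13 at D14 over D8 in all kept cells (main value 21), and at D21 over D14 they were 18 with median-of-ratios scaling, 17 with TMM and 21 at a fold of 1.5 (main value 11). The log2 difference of ANKRD1 between cluster 8 and CM-like cells at D14 (0.45) was 0.94 and 0.67 with mitochondrial limits of 5% and 20%, 0.74 with 1000 genes or more, 0.78 and 0.30 at resolutions of 0.4 and 1.2, 0.76 with all variable genes kept and 0.74 for cells with 32 or more contractile UMIs. Members with a UMI in over 50% of CM-like cells at D8 were 2, and 5 at full depth, which counts more UMIs per cell. Members past their mark below bin 6 at D8 were 3 at 50% of the highest bin, 8 at 25% and 6 without TNNT2 and MYL7, and below bin 7 at D14 they were 4, and 7 at 25%. The cause of these shifts was not tested. Leaving out cluster 18 was chosen after seeing the data and changed neither member count. No paired analysis was possible because each day is 1 library. For the same reason no library could be left out, and depth limits MYOZ2 (9 UMIs) and TCAP (79 UMIs) at D8 most.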
